A study of Mus musculus with 4 samples.

Results

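Mitochondrial ribosomal protein genes are the nuclear genes with symbols of the form Mrpl or Mrps followed by a number. All 74 such symbols among the 9546 in the deposited rlog table were taken, and all 74 were among the 9608 genes tested from the raw counts. Their proteins are made in the cytosol, imported into mitochondria and assembled with the mitochondrial 12S and 16S ribosomal RNAs into the mitochondrial ribosome. That ribosome translates the few proteins encoded in mitochondrial DNA, which are subunits of the respiratory chain and ATP synthase. Activated T cells are known to enlarge their mitochondria and to raise mitochondrial translation as they start to grow and divide.

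The study compared T cells that had or had not switched on an Il10 reporter after a strong tolerogenic signal. All 4 libraries came from spleens of Tg4 Nr4a3-Tocky IL-10 GFP mice. In these animals the T cells bear a transgenic receptor specific for a peptide of myelin basic protein, Nr4a3 drives a fluorescent Timer protein, and EGFP marks cells that express Il10. The mice had received 4 mg/kg of the peptide [4Y]-MBP under the skin 24 h earlier, and CD4+ Nr4a3-Timer+ cells were sorted into Il10-EGFP- (n = 2) and Il10-EGFP+ (n = 2) cells. There was thus no library from unstimulated mice, and both populations had received the peptide and carried the same alleles. The total count per library was 730330 and 686773 in Il10-EGFP- cells and 644679 and 700177 in Il10-EGFP+ cells. Another pair of replicates had been removed by the authors as an outlier in principal component analysis. The sort could be checked on Il10 itself, with 0 counts in both Il10-EGFP- samples. It had 29 and 41 counts in the Il10-EGFP+ samples, at least 12.4-fold higher against a floor of 3 counts per library.

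Markers of other cells differed between the populations as well. Over the 8 B cell markers tested the summed level was 111.3 and 156.1 CPM (counts scaled to an equal library size with TMM factors) in Il10-EGFP- libraries. It was 431.0 and 513.6 in Il10-EGFP+ libraries, with 4 markers called higher by edgeR and 2 by DESeq2. All 8 had a fold change above 0, with Igkc at 6 and 18 against 81 and 116 counts and Jchain at 0 and 0 against 15 and 16. Of the B cell receptor genes too low to be tested, Cd79a had 2 and 0 counts against 0 and 0 and Cd79b 1 and 1 against 4 and 2. The 9 myeloid markers tested summed to 111.3 and 138.6 against 385.0 and 200.5 CPM, with 2 called higher by edgeR and 0 by DESeq2. The 10 CD4 T cell markers summed to 3759 and 3449 against 4343 and 4068 CPM, with Trac called higher. Among the others, 4 erythroid markers summed to 160.2 and 140.1 against 267.8 and 206.3 CPM and 5 CD8 or NK markers to 39.4 and 64.2 against 50.7 and 62.0 CPM, with no marker of either list called by edgeR or DESeq2. In edgeR 2 erythroid markers and 1 CD8 or NK marker had an unadjusted p under 0.05, and limma voom called 1 erythroid marker. The part of other cells in the values below was not tested.

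The genes of the mitochondrial ribosome lie on 17 chromosomes, with 11 of them on chromosome 11. To see what they share in sequence, their promoters were read. Windows of 300 bases, from 250 before to 50 after the start, were held for 65 of the 74 genes in RefSeq on GRCm38.p6. Both strands were searched for 4 motifs of factors known to drive nuclear genes of mitochondria or growth. A gene with more than 1 window counted as a match if any of them matched. The ETS motif CCGGAAG, bound by GABP, was found in 24 of the 65 genes (36.9%). This compares with 24.3% of the 7373 tested genes with a window and 9.93% of all 27025 genes with a window. The NRF1 motif, GCGCA and GCGC with any single base between them, was in 13 of the 65 genes, against 13.5% and 5.19%. The YY1 motif AAGATGGC was in 12 (18.5%, against 6.36% and 3.19%), and the E-box CACGTG of MYC and MAX in 5 (7.69%, against 12.5% and 8.09%). In all, 43 of the 65 genes had at least 1 of the 4 motifs. Matches of different motifs were counted separately. A match to these letters does not show binding.

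The windows of 4 genes are shown, those of the 2 genes called in the comparison (Mrpl16, Mrpl12), of the gene next to the threshold (Mrpl3) and of the gene with the most counts (Mrpl33). Capitals mark a motif match. Mrpl12 held an NRF1 match that starts 81 bases before the transcript start, Mrpl3 an ETS match 19 bases before it and Mrpl33 an ETS match 3 bases before it, and Mrpl16 held none of the 4 motifs. All 4 windows are on the + strand, at chr19:11770165-11770464 (Mrpl16), chr11:120484387-120484686 (Mrpl12), chr9:105053018-105053317 (Mrpl3) and chr5:31613701-31614000 (Mrpl33).
Mrpl16: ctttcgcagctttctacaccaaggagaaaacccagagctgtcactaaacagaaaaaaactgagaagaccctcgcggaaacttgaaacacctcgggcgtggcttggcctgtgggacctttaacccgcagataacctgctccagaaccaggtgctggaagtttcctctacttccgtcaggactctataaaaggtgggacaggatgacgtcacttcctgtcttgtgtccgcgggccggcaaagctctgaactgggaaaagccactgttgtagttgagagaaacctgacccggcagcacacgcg
Mrpl12: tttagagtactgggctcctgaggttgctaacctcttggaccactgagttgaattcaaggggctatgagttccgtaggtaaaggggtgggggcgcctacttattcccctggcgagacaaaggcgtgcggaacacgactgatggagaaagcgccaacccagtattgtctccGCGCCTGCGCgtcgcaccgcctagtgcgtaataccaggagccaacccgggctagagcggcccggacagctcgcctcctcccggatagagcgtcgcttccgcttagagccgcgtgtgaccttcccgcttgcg
Mrpl3: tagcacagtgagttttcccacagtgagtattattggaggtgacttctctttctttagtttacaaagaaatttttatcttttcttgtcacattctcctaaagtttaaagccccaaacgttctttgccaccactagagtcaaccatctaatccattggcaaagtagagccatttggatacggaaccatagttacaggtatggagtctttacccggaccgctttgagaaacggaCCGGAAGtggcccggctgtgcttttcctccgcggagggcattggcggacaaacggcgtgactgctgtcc
Mrpl33: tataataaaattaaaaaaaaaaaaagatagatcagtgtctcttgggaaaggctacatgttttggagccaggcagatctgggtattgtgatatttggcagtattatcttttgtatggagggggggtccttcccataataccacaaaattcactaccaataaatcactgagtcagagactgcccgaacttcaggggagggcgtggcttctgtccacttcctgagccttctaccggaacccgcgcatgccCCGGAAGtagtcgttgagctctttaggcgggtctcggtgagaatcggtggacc

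Across the 74 genes, 2 were called in edgeR's quasi-likelihood test at a Benjamini-Hochberg adjusted p under 0.05, and both were lower in Il10-EGFP+ cells. This is 2.7% of the genes, against 4.09% of the 9608 genes tested, of which 1.74% were lower and 2.35% higher. DESeq2's Wald test called 0 of the 74 (1.17% of all genes), limma on the rlog values 1 (Mrpl16, against 2.06%) and limma voom 2 (4.25%). Without Il10-EGFP- replicate 1, edgeR called only Mrpl12, and without Il10-EGFP- replicate 2 or Il10-EGFP+ replicate 2 it called only Mrpl16. At an unadjusted p under 0.05 there were 8, all of them lower, against 15.5% of all genes and 7.49% for lower alone. The log2 fold change of Il10-EGFP+ over Il10-EGFP- cells was below 0 in 53 of 74 genes (71.6%), against 4804 of the 9608 genes tested. Its median was -0.14, with quartiles of -0.33 and 0.03, and the median of all genes was 0.00. Over both directions together, the share of genes called was thus not above the background. Both calls were lower, at 2.7% against 1.74% of all genes, and no difference from that share was tested. The family lay below all genes by its median and its sign. Fold changes ran from -1.38 for Mrps10, which had 11 and 9 against 4 and 3 counts, to 1.00 for Mrps21, and neither was called. In bulk RNA, fewer cells with a transcript and less of it per cell cannot be told apart.

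**Figure D1:**
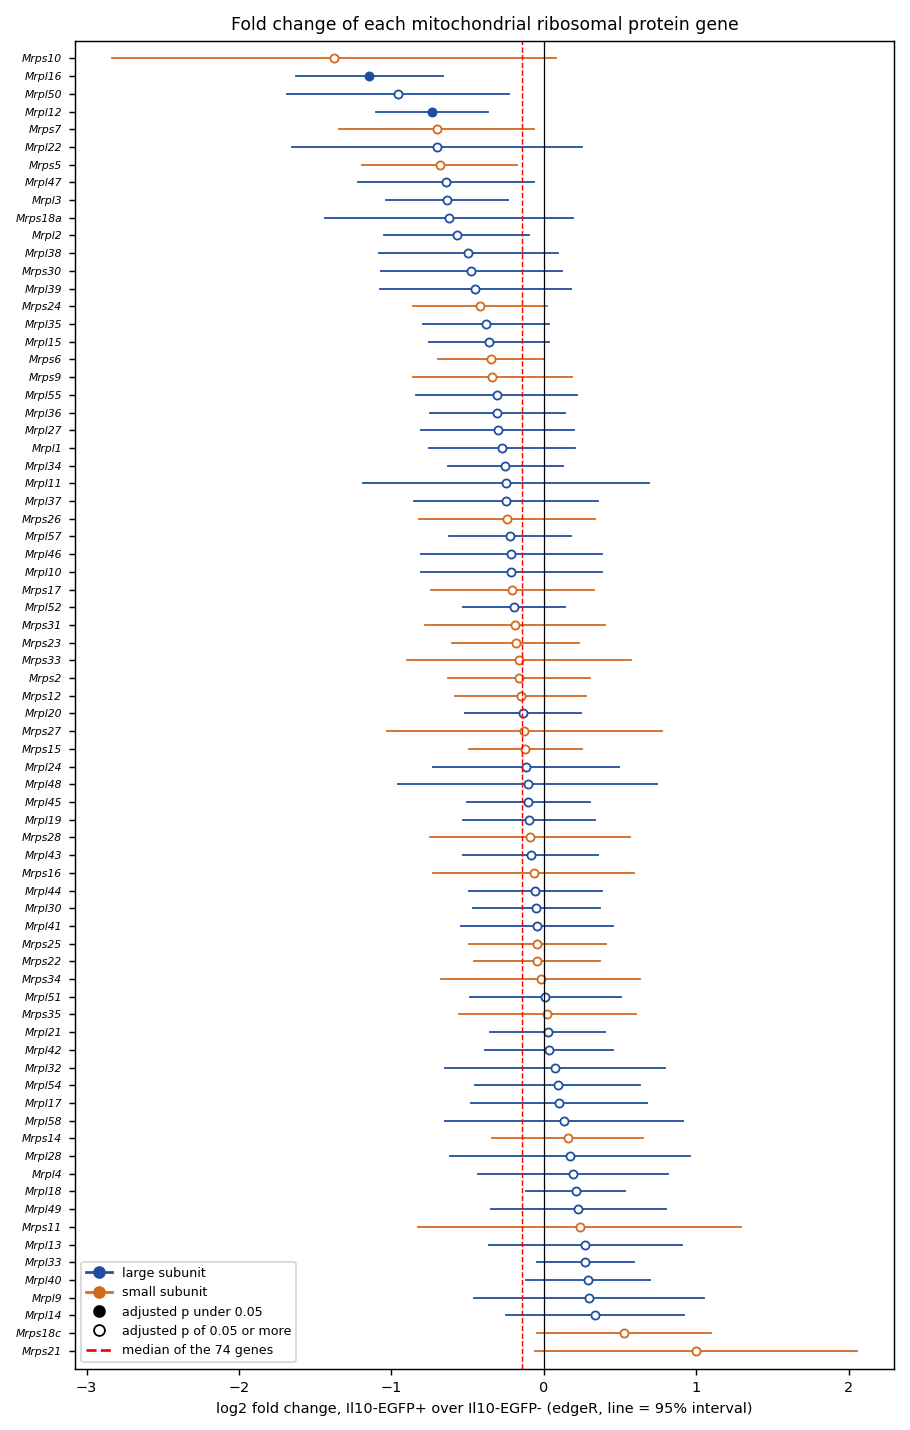
The log2 fold change of each of the 74 genes (point) with its 95% interval (line), from edgeR, ordered from lowest to highest and coloured by subunit. Filled points mark adjusted p under 0.05 (Mrpl16 and Mrpl12), and the dashed line marks the median of -0.14. Most points lie left of 0 and most intervals include 0.

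Library by library, the summed level of the 74 genes was 6624 and 7037 CPM in Il10-EGFP- cells (mean 6830 ± 292.1, SD, n = 2) and 6005 and 6208 CPM in Il10-EGFP+ cells (6107 ± 143.2), 10.6% lower in Il10-EGFP+ cells. The populations did not overlap. With 2 libraries against 2, the exact two-sided permutation test of a single value cannot give a p below 0.333. As a share of all counts the genes took 0.668% (95% Wilson interval 0.650 to 0.687%) and 0.702% (0.683 to 0.722%) in Il10-EGFP- libraries. In Il10-EGFP+ libraries they took 0.588% (0.570 to 0.607%) and 0.615% (0.597 to 0.633%), with intervals that cover counting error only. Both subunits had a lower sum in Il10-EGFP+ cells, 4841 ± 211.4 against 4340 ± 17.8 CPM for the 49 genes of the large subunit and 1990 ± 80.7 against 1767 ± 125.3 CPM for the 25 genes of the small subunit.

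**Figure D2:**
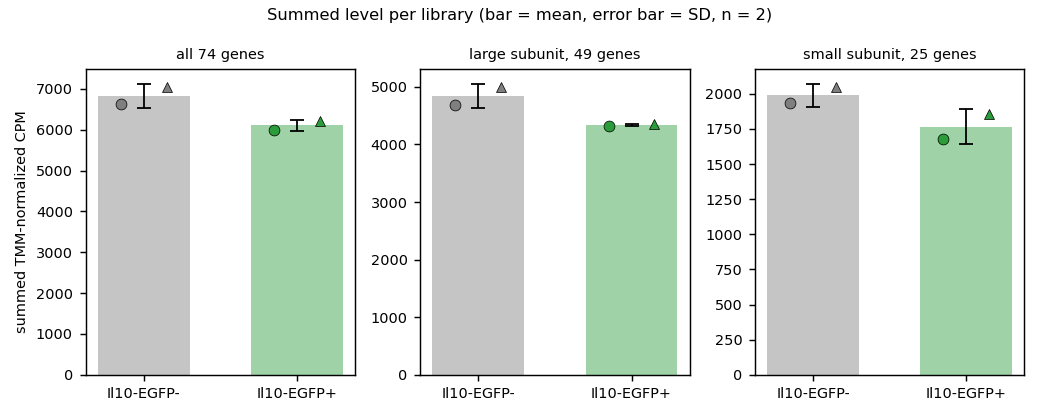
Summed TMM-normalized CPM of the genes in each library (points, with circles for replicate 1 and triangles for replicate 2), with the mean (bar) and SD (error bar) of each population. Il10-EGFP+ libraries lay at 6005 and 6208 CPM, below the Il10-EGFP- libraries at 6624 and 7037, and neither subunit overlapped between the populations.

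The median absolute log2 difference over the 74 genes was 0.215 between the Il10-EGFP- libraries and 0.217 between the Il10-EGFP+ libraries. It was 0.211 between the population means, which average 2 libraries each and so vary less by chance than single libraries do. In 36 of the 74 genes the log2 fold change changed sign when 1 of the 4 libraries was left out. The levels did not overlap in 28 genes that were lower and 5 that were higher in Il10-EGFP+ cells, against 22.3% of all genes in each direction, and 41 genes overlapped. The 5 higher were Mrps18c, Mrpl33, Mrpl40, Mrpl18 and Mrpl28, and none of them was called. By library, the median deviation of the 74 genes from their own mean was 0.07 and 0.15 in Il10-EGFP- libraries and -0.07 and -0.08 in Il10-EGFP+ libraries on the log2 scale.

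Mrpl16, a core protein of the large subunit whose bacterial counterpart L16 lies by the site that binds incoming transfer RNA, gave the lowest adjusted p. The gene (ENSMUSG00000024683, chr19:11770391-11774960, + strand) had 104 and 77 counts in the samples of Il10-EGFP- cells and 33 and 43 in those of Il10-EGFP+ cells, or 141.2 and 112.3 against 52.3 and 62.0 CPM. The 2 Il10-EGFP+ libraries lay below both others. The log2 fold change was -1.15 (SE 0.24), 2.21-fold lower in Il10-EGFP+ cells, with an adjusted p of 0.00138 in edgeR's quasi-likelihood test. Its transcript end was shared with no other gene. The call was lost without Il10-EGFP- replicate 1, at a log2 fold change of -0.97 and an adjusted p of 0.0625 in edgeR, and in DESeq2's Wald test, at 0.0715.

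Mrpl12 encodes the stalk protein that recruits translation factors to the large subunit. The gene (ENSMUSG00000039640, chr11:120484613-120489065, + strand) had 162 and 169 counts against 103 and 82, or 219.9 and 246.6 against 163.2 and 118.3 CPM, and the populations did not overlap. The log2 fold change was -0.73 (SE 0.18, 1.66-fold lower), with an adjusted p of 0.0108 in edgeR. The call was lost without Il10-EGFP- replicate 2 (adjusted p of 0.0976) and without Il10-EGFP+ replicate 2 (0.273) in edgeR, and in DESeq2 (0.184). Its last bases include 25 stretches of 50 bases in common with a processed pseudogene, Gm15770, which had 0 counts. Its partner in the stalk base, Mrpl10, had 41 and 40 against 33 and 32 counts, with a log2 fold change of -0.21 (SE 0.30) that was not called. The end of Mrpl10 shares sequence with 32 other genes.

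Mrpl3 and Mrpl2, counterparts of bacterial L3 and L2 that lie near the site of peptide bond formation, were also among the 7 genes with the lowest adjusted p. Mrpl3 had 130 and 109 against 71 and 72 counts, and no library of one population reached the range of the other. Its log2 fold change was -0.63 (SE 0.20), at an adjusted p of 0.0545 in edgeR, just above the threshold. Mrpl2 had 85 and 72 against 56 and 42 counts, with a log2 fold change of -0.57 (SE 0.24) and an adjusted p of 0.200 in edgeR. Neither was called.

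Further large subunit genes among those nearest the threshold were Mrpl50, which has no bacterial counterpart, and Mrpl47, the counterpart of bacterial L29 near the exit tunnel. Mrpl50 had 33 and 34 against 17 and 15 counts, with a log2 fold change of -0.96 (SE 0.36) and an adjusted p of 0.136 in edgeR. Mrpl47 had 52 and 49 against 33 and 27 counts, with a log2 fold change of -0.64 (SE 0.29) and an adjusted p of 0.252. Both had levels that did not overlap between populations. Mrpl22, the counterpart of a protein that lines the exit tunnel, had 24 and 13 against 11 and 10 counts and a log2 fold change of -0.70 (SE 0.47).

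In the small subunit, which decodes messenger RNA, 0 of 25 genes were called by edgeR, against 4.09% of all genes, and 0 by DESeq2, against 1.17%. At an unadjusted p under 0.05 in edgeR there were 2, both lower, against 7.49% of all genes for lower alone. They were Mrps5 and Mrps7, counterparts of bacterial S5 and S7. Mrps5 had 66 and 75 against 32 and 50 counts, with a log2 fold change of -0.68 (SE 0.25) and an adjusted p of 0.120 in edgeR, and its end is shared with the pseudogene Gm13328, which had 1 or 2 counts in each library. Mrps7 had 39 and 43 against 19 and 28 counts, with a log2 fold change of -0.70 (SE 0.32) and an adjusted p of 0.259, and its end overlaps Mif4gd on the other strand, which had 58 to 61 counts. In both genes the populations did not overlap. The log2 fold change was below 0 in 20 of the 25 small subunit genes (median -0.15) and in 33 of the 49 large subunit genes (median -0.14). No difference between the subunits was tested.

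**Figure D3:**
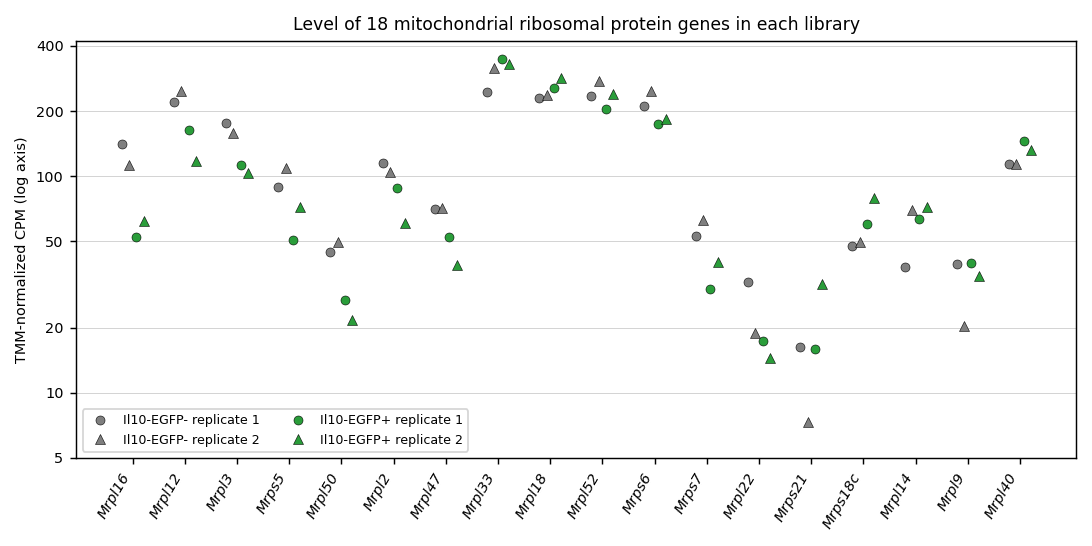
TMM-normalized CPM (log axis) of 18 genes in each of the 4 libraries, with grey for Il10-EGFP-, green for Il10-EGFP+, circles for replicate 1 and triangles for replicate 2. Mrpl16 and Mrpl12 were the only genes of the 18 called, and Mrpl33, Mrpl18, Mrps18c and Mrpl40 had both green points above both grey points.

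The genes with the most counts gave the smallest errors and differed in sign. Mrpl33, the counterpart of bacterial L33 in the large subunit, had 180 and 218 against 220 and 229 counts, a log2 fold change of 0.27 (SE 0.16) and an adjusted p of 0.425 in edgeR. Part of its end occurs in 200 other genes, so its count is uncertain. Mrpl18, related to the bacterial protein that binds 5S ribosomal RNA, had 170 and 162 against 161 and 197 counts and a log2 fold change of 0.21 (SE 0.16). Mrpl52, found only in mitochondria, had 174 and 188 against 129 and 166 counts and a log2 fold change of -0.20 (SE 0.17). Mrps6 of the small subunit had 155 and 169 against 110 and 128 counts and a log2 fold change of -0.35 (SE 0.17). Of these, Mrpl52 overlapped between populations and the others did not. None was called, and with Mrpl12 they form the 5 genes with the most counts.

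The 5 highest fold changes at a mean of at least 10 counts were those of Mrps21, Mrps18c, Mrpl14, Mrpl9 and Mrpl40, and none was called. Mrps21 had 12 and 5 against 10 and 22 counts, a log2 fold change of 1.00 (SE 0.53) and an adjusted p of 0.364 in edgeR, and its populations overlapped. Mrps18c, 1 of the mitochondrial copies of bacterial S18, had 35 and 34 against 38 and 55 counts and a log2 fold change of 0.53 (SE 0.29). Part of its end occurs in 9 other genes. Its paralogue Mrps18a, which sits in the large subunit, had 29 and 21 against 19 and 11 counts and a log2 fold change of -0.62 (SE 0.41). The other copy, Mrps18b, was outside the rlog table, with 7 counts over the 4 libraries. Mrpl40, with 84 and 78 against 92 and 92 counts, had a log2 fold change of 0.29 (SE 0.20) and did not overlap between populations. Mrpl14 and Mrpl9 had log2 fold changes of 0.34 and 0.30, and both overlapped. Parts of the ends of Mrpl40 and Mrpl9 occur in 20 and 68 other genes.

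The depth set how small a change could be seen. The 74 genes had 27 to 847 counts over the 4 libraries (median 190.5), and the SE of the log2 fold change ran from 0.16 to 0.73 with a median of 0.26. Of the 72 genes not called, 54 had a 95% interval that lay within a 2-fold change in either direction and 16 within a 1.5-fold change. For the other 18 a 2-fold change lay inside the interval. Mrps10 with 27 counts was the lowest gene of the rlog table in the family. Outside it lay 9 symbols of the same form with 0 to 7 counts, 5 of them pseudogenes and the others Mrpl23, Mrpl53, Mrps18b and Mrps36.

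Genes of the family were also grouped by descent and by count, and each of these groups had a median below 0. The 45 genes with a bacterial counterpart had a median log2 fold change of -0.16 (31 below 0, 2 called) and the 28 found only in mitochondria one of -0.10 (21 below 0, 0 called by edgeR or DESeq2). The upper 37 genes by mean counts had a median of -0.16 (30 below 0, 2 called) and the lower 37 one of -0.12 (23 below 0, 0 called by edgeR or DESeq2). In 28 genes part of the last 300 bases occurs in another gene, and in 7 that end overlaps another gene. The 42 genes free of both had a median of -0.22, with 32 below 0 and 1 called (Mrpl16). Among the genes with a promoter window the median was -0.12 with and -0.21 without the ETS motif and -0.06 with and -0.19 without the NRF1 motif. It was -0.20 with and -0.16 without the YY1 motif, and -0.25 with and -0.16 without the E-box, which only 5 genes had. None of these splits was tested.

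Of the proteins of the mitochondrial ribosome that have other symbols, 5 were tested. These were Dap3, Ptcd3, Aurkaip1, Chchd1 and Gadd45gip1. None was called in edgeR or DESeq2, with 0 at an unadjusted p under 0.05 in edgeR. All 5 log2 fold changes were below 0, with a median of -0.22. Ptcd3 had the lowest, with 68 and 51 against 40 and 38 counts and a log2 fold change of -0.50 (SE 0.26).

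Genes that build, modify or use the mitochondrial ribosome were read from fixed lists. The 26 assembly and ribosomal RNA modification genes had a median of -0.03, with 15 below 0 and a range of -1.05 to 1.18. The 15 translation factors had a median of -0.11, with 11 below 0. Among them Lrpprc, which stabilizes mitochondrial messenger RNAs, had 243 and 318 against 167 and 213 counts and a log2 fold change of -0.47 (SE 0.16), at an adjusted p of 0.0838 in edgeR. Mtfmt, the enzyme that formylates the initiator transfer RNA, had 3 and 4 against 11 and 13 counts and a log2 fold change of 1.84 (SE 0.68), at an adjusted p of 0.121. The 8 genes for copying and transcribing mitochondrial DNA had a median of -0.12. No gene of these lists was called in the main edgeR fit or by DESeq2. Lrpprc was called by edgeR with a replicate block and with at least 10 counts in every library. In the main edgeR fit 3 translation factors had an unadjusted p under 0.05, against 15.5% of all genes, 2 of them lower and 1 higher.

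The RNAs encoded in mitochondrial DNA include the ribosomal RNAs that these proteins bind. Of the 10 tested, 3 had a log2 fold change below 0 (mt-Nd1, mt-Nd6 and mt-Co1), with a median of 0.09. The 10 summed to 105200 and 105300 CPM in Il10-EGFP- cells and to 121900 and 114400 CPM in Il10-EGFP+ cells, 12.2% more, and the populations did not overlap. Most of this lay in the ribosomal RNAs, which summed to 62020 and 59330 against 73600 and 69450 CPM (17.9% more), whereas the 8 messenger RNAs summed to 43170 and 46000 against 48280 and 44980 CPM (4.59% more) and overlapped. mt-Rnr1, the 12S ribosomal RNA, had a log2 fold change of 0.18 (SE 0.10) at an adjusted p of 0.421 in edgeR, and mt-Rnr2, the 16S ribosomal RNA, one of 0.27 (SE 0.10) at 0.115. Neither was called in the main edgeR fit or by DESeq2. With no filter on low counts, or with a replicate block, edgeR called mt-Rnr2 higher. Limma voom called 3 of the 10 higher (mt-Nd4, mt-Rnr1 and mt-Rnr2). Of the 15 genes listed, 5 had at most 2 counts in any library, among them mt-Co2, mt-Co3 and mt-Atp6. All 5 encode messenger RNAs, so the messenger RNA sum above does not cover every messenger RNA of mitochondrial DNA. Why their counts were so low, in the cells or in mapping and counting, was not tested.

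Among 9 tested factors known to drive nuclear genes of mitochondria, 2 were called in edgeR (22.2%, against 4.09% of all genes), both lower in Il10-EGFP+ cells. DESeq2's Wald test, limma on rlog and limma voom each called only Max of these factors. The log2 fold change was below 0 in 6 and above 0 in 3. Max, the partner of MYC, had 229 and 264 against 123 and 154 counts, with a log2 fold change of -0.73 (SE 0.16) and an adjusted p of 0.00286. Myc had 27 and 19 against 7 and 7 counts, with a log2 fold change of -1.59 (SE 0.49) and an adjusted p of 0.0465. In both genes the populations did not overlap. Gabpa, Gabpb1 and Yy1, whose motifs were searched above, had log2 fold changes of 0.43, 0.37 and 0.13, and Nrf1 one of -0.35, and none of these was called. Pprc1, a coactivator of the same genes, had 32 and 44 against 21 and 20 counts and a log2 fold change of -0.79 (SE 0.34) that was not called. Both calls were lost without Il10-EGFP- replicate 2 (adjusted p of 0.0986 for Max and 0.0710 for Myc) and without Il10-EGFP+ replicate 1 (0.0570 and 0.156). That of Myc was lost in edgeR without any 1 of the 4 libraries.

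Other large families of the same kind lay at the median of all genes. The 80 cytosolic ribosomal protein genes, whose ribosome translates nuclear messages, had a median log2 fold change of 0.01, with 36 below 0 and 1 called higher. Their sum was 77000 and 86030 against 78650 and 84070 CPM and overlapped between populations. The 76 nuclear subunits of the respiratory chain and ATP synthase had a median of 0.00, with 36 below 0 and 0 called by edgeR or DESeq2. At an unadjusted p under 0.05 in edgeR there were 8 of them, against 15.5% of all genes. The sum of the 76 differed by 2.28%. Medians of lists are descriptions, and no difference between lists was tested.

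**Figure D4:**
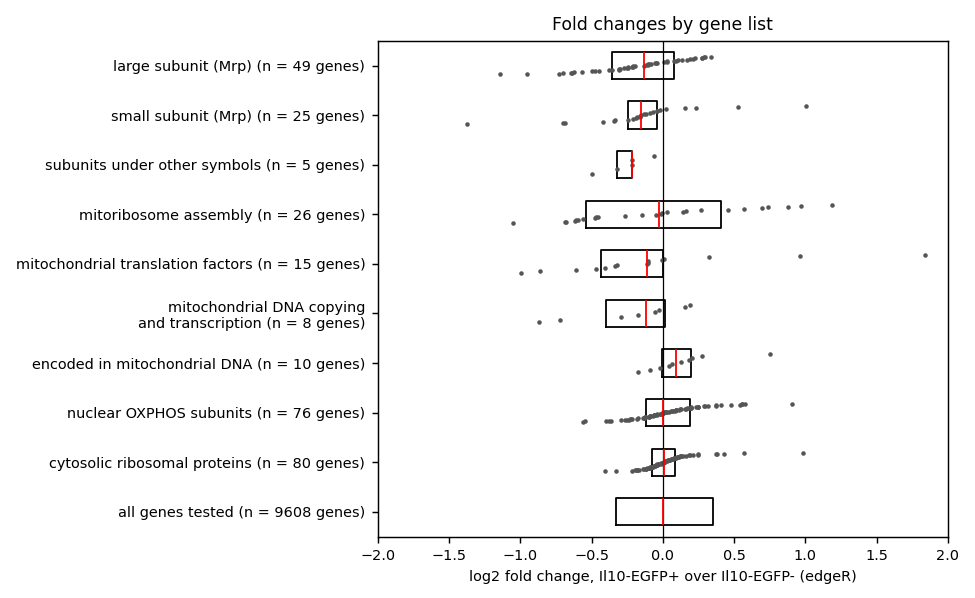
Log2 fold changes (edgeR) of the genes of each list, with the box at the quartiles, the red line at the median and a point per gene (no points for the 9608 genes tested). The medians of the large and the small subunit (-0.14 and -0.15) lie left of those of cytosolic ribosomal proteins and nuclear respiratory subunits (0.01 and 0.00), and the boxes overlap in part.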

How the data were processed

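RNA of sorted cells was made into Lexogen QuantSeq 3′ FWD libraries, read from the transcript end, from 5 ng. The labels and the study's methods name different RNA kits. The authors deposited counts per Ensembl gene from STAR 2.5.2a and HTSeq 0.6.0 on GRCm38, and log2-scale rlog values from DESeq2, after a filter of 10 reads. The annotation release, the strand option and whether the counts are of collapsed reads are not given in the sources used here. Unique molecular identifiers were, per the labels, used to assess PCR duplicates and amplification bias.

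The tests covered each gene whose 4 libraries summed to at least 10 counts, with edgeR 4.0.16 (TMM factors, default glmQLFit and glmQLFTest, R 4.3.3) without a replicate term and with Benjamini-Hochberg adjustment over 9608 genes and a threshold of 0.05. DESeq2 1.42.0, limma 3.58.1, other filters and scalings, a replicate block and leaving out each library were alternatives. Scripts were tested on simulated data. CPM were computed here from the counts. Coordinates are from GENCODE M21 (GRCm38) and promoters from RefSeq (GRCm38.p6). End sharing was searched over 50-base stretches of the last 300 bases. Genes named are those called, those with the 5 most counts, the 5 highest and 5 lowest fold changes at a mean of at least 10 counts, the 5 next by adjusted p and called genes of the lists. Other named genes (Mrps10, Mrps18a, Mrps18b, Mrpl10, Mrpl28, Ptcd3, Lrpprc, Mtfmt, Pprc1, Gabpa, Gabpb1, Yy1, Nrf1 and single mitochondrial and marker genes) were chosen after their values were seen. Members and lists were chosen with earlier results of these data known. The labels do not tie a replicate number to 1 mouse, so p-values refer to these libraries and not to mice. In edgeR the variance of each gene was drawn mostly from all genes tested, with 52.22 prior degrees of freedom at n = 2 per population. The p-values, SE and intervals from edgeR thus do not measure the spread of a gene's own libraries alone.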

Additional observations from a re-analysis of the deposited data

How the results depend on the processing

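The median log2 fold change of the 74 genes stayed below 0 under every alternative run. It was -0.048 with limma on rlog values, which shrink the changes of low genes, -0.22 over genes with an unambiguous end, a choice made after seeing the data, and -0.21 to -0.13 leaving out each library. The number of genes called (2, both in the large subunit) became 0 with DESeq2's Wald test (7 genes got no adjusted p), 0 in DESeq2 with a replicate block, 1 with limma on rlog (Mrpl16), 0 with bias-adjusted deviances and no filter (added after seeing the data) and 1 to 2 leaving out each library. It became 3, with Mrpl3 added, with library size only (adjusted p of 0.0447 in edgeR), where 3.82% of all genes were called. It was also 3 with at least 10 counts in every library (0.0317), where 7.46% of the genes tested were called. For the other lists, 2 genes called (Max, Myc) became 1 with DESeq2 (Max) and 1 with limma on rlog (Max). They became 4 with limma voom (Max, mt-Nd4, mt-Rnr1, mt-Rnr2), 3 with no filter (mt-Rnr2 added) and 0 with bias-adjusted deviances and no filter. With at least 10 counts in every library, Max and Lrpprc were called and Myc was not tested. Leaving out each library also changed which of these genes were called. Over all genes, the 393 called became 112 with DESeq2 and 197 with limma on rlog. Among the 23 genes tried singly, the fold change reversed in 2, Mrpl14 (-0.045 without Il10-EGFP- replicate 1, up to 0.84 leaving out each library) and Mrpl9 (-0.085 without Il10-EGFP- replicate 2, up to 0.85). Except for the effects of construction named here, the cause was not tested.

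Samples of the same replicate number did not deviate together (correlation 0.0177 across 6781 genes). With the replicate block, edgeR called 3 genes of the 74 (Mrpl3 added, adjusted p of 0.0246), against 5.83% of all genes. It also called 4 genes of the other lists (Lrpprc, Max, Myc, mt-Rnr2), and DESeq2 with the block called 0 of either. Of 353 values of 23 single genes under 17 alternatives, 322 kept direction and call, 22 lost the call, 7 gained it and 2 reversed. At 27 to 847 counts a gene, estimates near 2-fold were not always called (Mrpl50 at -0.96 and Mrps21 at 1.00 on the log2 scale were not). Whether these estimates reflect real changes cannot be told from these libraries.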
